A study of Homo sapiens with 13 samples.

Results

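The transcripts described here encode the ZFP36 family of mRNA decay factors (ZFP36, ZFP36L1, ZFP36L2), the BTG and TOB antiproliferative proteins (BTG1, BTG2, BTG3, TOB1, TOB2) and the RNA-binding proteins ELAVL1 and KHSRP, 10 genes in all, of which 9 were among the 7731 genes tested. They were followed by the platform's gene symbols (gene positions below are those of GRCh38.p14), each represented by the probe set with the highest mean over the 13 arrays, a choice that did not use the stimuli. For 9 of the 10 such a probe set was available, and all 9 passed the filter on dim genes. BTG2 was not analysed here. The study measured MCF10A cells, a spontaneously immortalized human mammary epithelial line, that had been deprived of serum for 24 h. There was 1 array at each of 20, 40, 60, 120, 240 and 480 min after EGF, 1 array at each of the same times after the mixture its authors call serum (horse serum, insulin, cholera toxin and hydrocortisone), and 1 unstimulated array. All cells shared the deprivation, and no label gives an unstimulated array at a later time. No group was replicated, so p-values measure only the spread between these arrays. That spread may be technical, and it may also hold real change, since arrays of different times or stimuli served as samples. An RNA extract cannot tell fewer expressing cells from less RNA per cell. Precision is limited throughout by how few arrays there were.

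ZFP36 (also called tristetraprolin) and its relatives bind AU-rich elements in the 3′ ends of short-lived mRNAs through paired zinc fingers and recruit the CCR4-NOT deadenylase, so that growth factor and cytokine transcripts decay quickly. BTG and TOB proteins bind the deadenylase subunits CNOT7 and CNOT8 through a shared domain, slow cell division and, in the case of the TOB proteins, also bind the poly(A)-binding protein PABPC1. ELAVL1 (HuR) binds AU-rich elements and stabilizes the message, while KHSRP promotes its decay. Transcripts of several of these genes are known as fast responses to growth factors, glucocorticoids or cAMP.

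The promoters of 3 of these genes are shown, all chosen after their values were seen. ZFP36 had the widest span over the arrays, and ZFP36L1 and TOB1 are 2 of the other 3 genes with the largest mean differences between EGF and serum. The planned rule named the 2 members of widest span, which were ZFP36 and ZFP36L2 (1.49). ZFP36L2 was not among the genes with a matched promoter. The promoters of BTG1, BTG3, TOB2 and KHSRP, which had smaller differences, and of BTG2 are not shown. That of BTG1 held 2 matches to the core TGACG described below, and those of KHSRP and BTG2 held 1 each. The BTG2 promoter also held 2 EGR matches. Each promoter covers 250 bases before to 50 after a RefSeq transcription start in GRCh38.p14, written 5′ to 3′ on the gene's strand. ZFP36 lies at chr19:39406597-39406896 (plus strand). ZFP36L1 lies at chr14:68793367-68793666 and TOB1 at chr17:50866305-50866604 (both minus strand), each the more downstream of 2 listed starts.
ZFP36: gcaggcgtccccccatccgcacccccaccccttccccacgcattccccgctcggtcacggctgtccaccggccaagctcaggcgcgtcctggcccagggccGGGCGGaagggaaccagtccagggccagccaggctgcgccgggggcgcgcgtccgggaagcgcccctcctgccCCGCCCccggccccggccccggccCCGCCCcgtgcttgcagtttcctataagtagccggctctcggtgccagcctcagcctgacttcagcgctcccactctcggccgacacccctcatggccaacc
ZFP36L1: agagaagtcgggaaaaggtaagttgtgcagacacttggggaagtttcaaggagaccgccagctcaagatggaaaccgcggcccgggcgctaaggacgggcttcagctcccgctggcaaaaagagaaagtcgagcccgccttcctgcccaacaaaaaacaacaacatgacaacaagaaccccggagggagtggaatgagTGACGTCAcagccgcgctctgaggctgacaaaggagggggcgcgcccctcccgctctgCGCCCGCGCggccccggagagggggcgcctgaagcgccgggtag
TOB1: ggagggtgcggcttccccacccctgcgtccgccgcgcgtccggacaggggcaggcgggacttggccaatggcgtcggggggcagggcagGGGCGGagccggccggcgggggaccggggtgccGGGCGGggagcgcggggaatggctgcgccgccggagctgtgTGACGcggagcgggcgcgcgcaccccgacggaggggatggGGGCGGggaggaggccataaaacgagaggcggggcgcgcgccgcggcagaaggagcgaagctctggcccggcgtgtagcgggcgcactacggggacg
Capitals mark matches, on either strand, to 6 searched motifs. These were the cAMP response element TGACGTCA, its core TGACG (which the full site holds on both strands), the AP-1 site TGANTCA, the EGR site GCGNGGGCG, the SP1 site GGGCGG and the CArG box of serum response factor. ZFP36 held 3 SP1 matches, a motif found in 45% of the 35116 promoters of this length. ZFP36L1 held 1 full cAMP response element, found in 1.85% of them, and 1 EGR match (9.43%). TOB1 held 3 SP1 matches and 1 core, a run of letters found in 24.6%. The other starts of ZFP36L1 and TOB1 held 1 core and 0 matches, fewer than the starts shown. Neither the AP-1 site (7.71%) nor the CArG box (1.29%) was found in these windows. A match describes these letters only.

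Overall quality was similar across arrays. On the serum array of 20 min 33.3% of probe sets had a signal below 20, a share that ranged over 36.8% to 40% elsewhere, and the actin control's 3′ signal was 1.31 to 1.79 times its 5′ signal. For EGF at 20 min the title gives 20 min and the description 40 min, and the title was used. The 7 epithelial markers found, led by KRT14 (4863 to 6975) and KRT5 (3823 to 6185), were bright on every array, while VWF (1.2 to 5.1), PTPRC (0.3 to 12.8) and LUM (0.2 to 4.9) were near 0. CD14 (86.1 to 286), in the leukocyte list, and DCN (139.6 to 405) and COL1A1 (22.4 to 77.7), in the fibroblast list, gave signal.

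ZFP36 (chr19:39406847-39409407) gave the widest swing among the 9 genes. Its deposited signal was 154 in unstimulated cells. After EGF it was 253, 454, 389, 223, 152 and 151 at 20, 40, 60, 120, 240 and 480 min. After serum it was 442, 604, 435, 526, 261 and 252 at the same times. Both series were highest at 40 min. The EGF series was near the unstimulated level by 240 min, whereas the serum series was still high at 120 min and stayed above it to 480 min. The span over the 13 arrays, on the normalized log2 scale used for all differences below, was 1.98, at percentile 94.2 of tested genes.

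With the mean of the EGF and serum arrays of a time set against the unstimulated array, ZFP36 was at 1.18 (SE 0.29) at 20 min, 1.80 (SE 0.29, a 3.47-fold higher value) at 40 min, 1.46 at 60 min, 1.20 at 120 min, 0.42 at 240 min and 0.40 at 480 min. Its adjusted p in limma was 0.181 at 40 min, where it ranked 11 of 7731 genes by p, and 0.207 at 60 min, so it did not pass the threshold of 0.05. With a variance trend and robust variances it did, at adjusted p = 0.00329 and 0.0157 in limma. At each of these times that was the only 1 of 21 alternatives under which it passed. The setting called 20 and 28 genes, against 6 and 6. ZFP36 had a 95% interval of 1.12 to 2.47 at 40 min. It was at least 2-fold above the unstimulated array on both arrays of 40 min and on both of 60 min, as were 0.698% and 0.828% of tested genes. The 6 responses share the lone unstimulated array and so share its error.

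**Figure D1:**
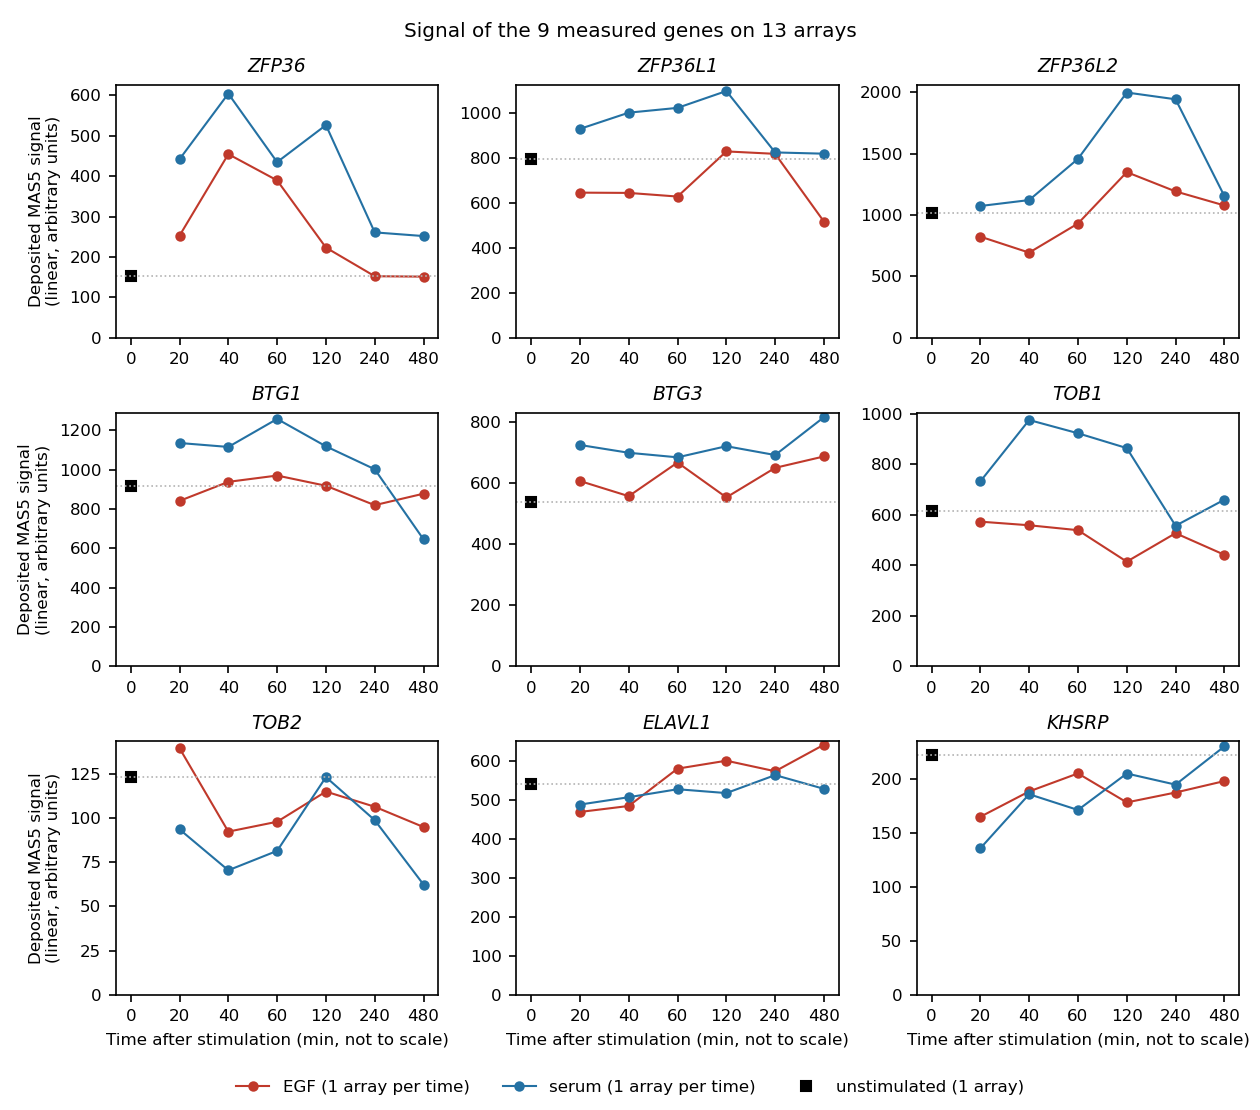
Deposited MAS5 signal (linear, arbitrary units, axes starting at 0) of the 9 measured genes in unstimulated cells (black square and dotted line) and at 20 to 480 min after EGF (red) or serum (blue), with 1 array per point and no error bar. ZFP36 peaks at 454 after EGF and 604 after serum, both at 40 min, and the serum points of TOB1 lie above its EGF points at all 6 times.

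ZFP36L1 (chr14:68787655-68796243), a relative of ZFP36 with the same kind of RNA-binding fingers, had values on opposite sides of the unstimulated array in the first hour. Its signal was 795 in unstimulated cells and 646, 644, 628, 829, 818 and 517 from 20 to 480 min of EGF. From 20 to 480 min of serum it was 929, 1001, 1022, 1097, 824 and 819. The 3 early EGF arrays lay below the unstimulated one and the 3 early serum arrays above it, so the means of both stimuli at 20, 40 and 60 min were near 0 (-0.05, -0.03 and -0.03). At 240 min the stimuli were level.

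ZFP36L2 (chr2:43222402-43226606), the remaining family member measured, peaked later than ZFP36. Its signal was 1014 in unstimulated cells and 824, 694, 930.3, 1349, 1192 and 1078 over the 6 times of EGF. After serum it was 1073, 1121, 1457, 1997, 1942 and 1154. Both series were highest at 120 min, and by 480 min both were near the unstimulated level. The mean response was 0.63 (SE 0.20, limma adjusted p = 0.425) at 120 min and 0.50 (SE 0.20, limma adjusted p = 0.483) at 240 min. ZFP36 was thus highest at 40 min in both series, and ZFP36L1 and ZFP36L2 at 120 min in both. The order of the peak times was not tested.

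Among the 4 antiproliferative genes measured, TOB1 (chr17:50862223-50867978) had the largest mean difference between the stimuli. Its signal was 615 in unstimulated cells and 573, 559, 539, 414.5, 527 and 442 after EGF. After serum it was 733, 976, 923, 864, 557 and 660.1. All 6 EGF arrays were below the unstimulated array and 5 of 6 serum arrays above it. TOB2 (chr22:41433494-41446801), its paralog, had 123.5 in unstimulated cells and 139.7, 92.4, 98.0, 115, 106 and 95 after EGF. After serum it had 93.7, 70.5, 81.5, 123, 98.9 and 62.4. Most stimulated arrays were below the unstimulated one, and its mean response was -0.48 (SE 0.23, limma adjusted p = 0.76) at 40 min.

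BTG1 (chr12:92140278-92145846), whose protein restrains proliferation, had a signal of 916 in unstimulated cells and values close to it after EGF, at 841, 938, 969.8, 918, 819 and 878. After serum it had 1135, 1115, 1258, 1118, 1002 and 645. The serum array of 480 min was the lowest of all 13 and that of 60 min the highest. BTG3 (chr21:17593653-17612901), another family member, had 537 in unstimulated cells and 606, 556, 667, 552.5, 649 and 686.5 after EGF. After serum it had 724, 698, 684, 720.0, 691 and 815. On the brightest probe sets, ZFP36 and BTG3 were the members above the unstimulated array on 12 of 12 stimulated arrays, which 7.55% of tested genes were. For BTG3 the margin was small, with a largest mean response of 0.44 (SE 0.16, limma adjusted p = 0.368) at 480 min. Its second brightest probe set had mean responses of 0.04, 0 and 0.115 at 120, 240 and 480 min. Its dimmest (median signal 42.7) was at -0.28 and -0.23 at 240 and 480 min, so a lasting rise cannot be given for BTG3.

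ELAVL1 (chr19:7958573-8005641) had, on its brightest probe set, the narrowest span of the 9 genes, 0.42, at percentile 7.9 of tested genes. Its signal was 542.5 in unstimulated cells, 469.5, 485, 581, 601, 574 and 642 after EGF, and 488.5, 507, 528, 518, 564 and 529 after serum. At 20 and 40 min both stimuli lay below the unstimulated array on this probe set, and the EGF arrays from 60 min on lay above it. The dimmer probe set of ELAVL1 ran from 73.4 to 169. Its mean responses were 0.45 at 40 min and 0.655 at 120 min, against -0.15 and 0.03 on the brightest, so a flat course cannot be given for ELAVL1. KHSRP (chr19:6413102-6424811) had 222 in unstimulated cells, 165, 188, 205, 178, 187 and 198 after EGF, and 136, 186, 171, 205, 195 and 230.1 after serum. All stimulated arrays but the serum array of 480 min were below the unstimulated one. Its lowest value was on the serum array of 20 min, the array with fewest dim probe sets. Its response at 20 min was -0.53 (SE 0.21, limma adjusted p = 0.828) and was -0.33 without that array.

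None of the 9 genes passed the threshold against the unstimulated array at any time. In all tested genes limma called 0.0259% at 20 and 120 min, 0.0776% at 40 and 60 min, and 0% at 240 and 480 min. At an unadjusted p under 0.05 the members numbered 2 at 20 min and at 120 min and 1 at each of the other times, against 5.9% of all tested genes at 20 min, 7.04%, 7.44%, 9.25%, 9.73% and 11.8% at the later times in order. ZFP36 was among them at 20, 40, 60 and 120 min. The members' median response was -0.05, -0.03, 0.14, 0.11, -0.01 and -0.02 from 20 to 480 min, against medians of all genes between -0.01 and 0.03.

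The comparison of EGF with serum asks which transcripts depend on the stimulus, time point by time point (n = 6 pairs of arrays). Lower values after EGF were found for ZFP36 (-0.68, SE 0.14, 1.60-fold, limma adjusted p = 0.0711) in 6 of 6 pairs. The same held for TOB1 (-0.61, SE 0.13, 1.52-fold, limma adjusted p = 0.0756) and ZFP36L2 (-0.49, SE 0.10, 1.41-fold, limma adjusted p = 0.0662), each in 6 of 6 pairs. ZFP36L1 (-0.49, SE 0.11, 1.40-fold, limma adjusted p = 0.0814) was lower in 5 of 6, the exception being 240 min (0.01). These 4 missed the threshold, and 0 of 9 members passed it in either direction, as 0.129% of all tested genes did (0.0129% higher and 0.116% lower after EGF). At an unadjusted p under 0.05 were 6 of 9 members, against 20.5% of tested genes. All 4 passed the threshold with an offset of 24, with a filter at the 60th percentile and with a variance trend, their adjusted p in limma then running from 0.00309 to 0.0484, while over all alternatives it ran up to 0.58.

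The pairs were not equal in size. For ZFP36 the difference was smallest at 60 min (-0.15) and largest at 120 min (-1.23), when the EGF signal was 223 and the serum signal 526. TOB1 was also farthest apart at 120 min (-1.05) and closest at 240 min (-0.08). ZFP36L2 ran from -0.44 to -0.69 at the first 5 times and was at -0.08 at 480 min. ZFP36L1 ran from -0.58 to -0.70 in the first hour.

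BTG3 was lower after EGF in 6 of 6 pairs as well, by less (-0.21, SE 0.08, limma adjusted p = 0.183). On the brightest probe sets, members lower in all 6 pairs were thus 4 of 9, against 6.86% of tested genes. The second brightest probe set of BTG3 was lower after EGF in only 2 of 6 pairs. BTG1 was at -0.20 (SE 0.13, limma adjusted p = 0.407), lower in 5 pairs and higher at 480 min (0.45). TOB2 was at 0.27 (SE 0.11, limma adjusted p = 0.224), higher after EGF in 5 of 6 pairs. For ELAVL1 the difference was 0.09 (95% interval -0.09 to 0.28) and for KHSRP -0.00 (95% interval -0.24 to 0.23), intervals that leave room for small differences either way. The members' median was -0.21, against 0.01 over all tested genes.

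**Figure D2:**
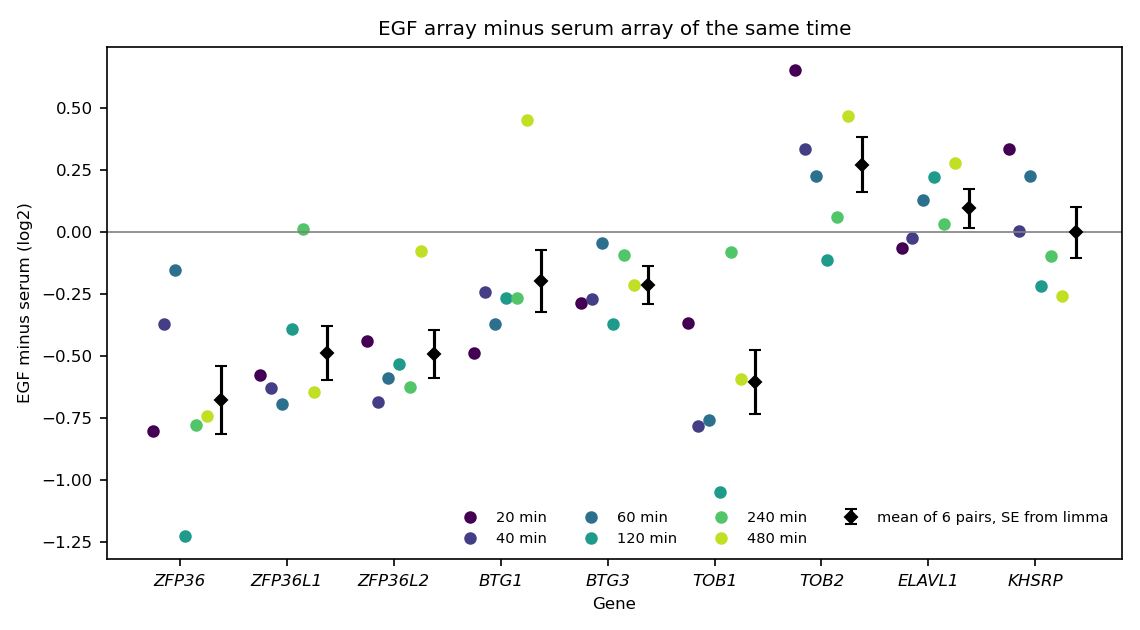
EGF array minus the serum array of the same time (log2, y axis) for each gene, with 1 coloured point per time and the mean of the 6 pairs with its limma SE as a black diamond. All 6 points of ZFP36, ZFP36L2, BTG3 and TOB1 lie below 0, and the diamonds of ELAVL1 (0.09) and KHSRP (-0.00) lie near it.

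Split by phase, the early arrays (20, 40 and 60 min) of EGF and serum did not overlap for 6 of 9 members on the brightest probe sets, against 21.7% of tested genes. ZFP36L1, ZFP36L2, BTG1, BTG3 and TOB1 were lower after EGF and TOB2 higher. The early differences were -0.63 for ZFP36L1 (SE 0.14, limma adjusted p = 0.165), -0.57 for ZFP36L2 (SE 0.13, limma adjusted p = 0.177), -0.64 for TOB1 (SE 0.19, limma adjusted p = 0.244) and 0.40 for TOB2 (SE 0.15, limma adjusted p = 0.299). BTG1 was at -0.37, BTG3 at -0.20, ELAVL1 at 0.01 and KHSRP at 0.19. The second brightest probe sets of BTG3 and TOB2 had early values of the other sign, 0.07 and -0.28. With its probe sets averaged, the early value of ZFP36L1 was -0.20 (limma adjusted p = 0.69). No member passed in limma, nor did any tested gene (0%), while 5 members and 14.4% of genes had an unadjusted p under 0.05. For ZFP36 the early value was -0.44, and it was -0.26 without the serum array of 20 min.

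In the late arrays (120, 240 and 480 min) ZFP36 was 1.89-fold lower after EGF (-0.92, SE 0.16, limma adjusted p = 0.0687), with 223, 152 and 151 after EGF against 526, 261 and 252 after serum. TOB1 was at -0.58 (SE 0.19, limma adjusted p = 0.191), ZFP36L2 at -0.41 and ZFP36L1 at -0.34. The other late values were -0.23 for BTG3, -0.19 for KHSRP, -0.03 for BTG1, 0.14 for TOB2 and 0.18 for ELAVL1. On the normalized scale late arrays did not overlap, with EGF lower, for ZFP36, TOB1 and KHSRP (10.8% of tested genes), and with EGF higher for ELAVL1 (11.7%). In this comparison 0 of 9 members and 0.75% of tested genes passed in limma (0.246% higher and 0.504% lower after EGF), and 4 members and 18.9% of genes had an unadjusted p under 0.05. Of the 7 epithelial markers 5 had lower values after EGF in the late arrays (median -0.27), led by the cadherin CDH1 (-0.74, limma adjusted p = 0.0687), and their part in these values was not tested.

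Whether the difference between the stimuli itself changed from early to late was tested as an interaction. ZFP36 was at -0.47 (SE 0.23, limma adjusted p = 0.486) and KHSRP at -0.38 (SE 0.15, limma adjusted p = 0.44), with 0 members past the threshold (0.0259% of tested genes) and 1 at an unadjusted p under 0.05 (11.1%). The other members were between -0.27 (TOB2) and 0.34 (BTG1).

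The late-minus-early comparison asks which transcripts differ between the first hour and the hours after it. Over both stimuli (n = 6 late and 6 early arrays) ZFP36 was lower late (-0.81, SE 0.21, 1.75-fold, limma adjusted p = 0.0591) and ZFP36L2 higher late (0.48, SE 0.15, 1.39-fold, limma adjusted p = 0.0846). Neither passed the threshold. The 2 paralogs thus had values of opposite sign, a difference between genes that was not tested. TOB1 was lower late (-0.34, SE 0.12, limma adjusted p = 0.112), and ZFP36L1 was level (-0.01, 95% interval -0.29 to 0.27). BTG1 was at -0.24 (SE 0.12, limma adjusted p = 0.264) on its brightest probe set and at 0.002 on the other. The other probe sets of ZFP36L2 were at 0.32 and 0.13. The remaining values on the brightest probe sets were 0.05 for BTG3, 0.09 for TOB2, 0.15 for ELAVL1 and 0.18 for KHSRP. The other probe set of TOB2, with a median signal of 96.9 against 98, was at 0.43. Those of BTG3 were at -0.10 and -0.47, with median signals of 373.8 and 42.7.

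In all, 0 of 9 members and 3.47% of tested genes passed in limma (1.68% higher and 1.79% lower late), and 3 members and 23.9% of genes had an unadjusted p under 0.05. ZFP36 passed under 5 alternatives, among them the fit with time as a factor (adjusted p = 0.0373 in limma) and the fit without the serum array of 120 min (-0.98, adjusted p = 0.0164 in limma). TOB1 also passed without that array (-0.43, adjusted p = 0.0402 in limma), and ZFP36L2 without the serum array of 480 min (0.60, adjusted p = 0.0304 in limma). CD14, the leukocyte marker with signal, fell late (-0.79, adjusted p = 0.0219 in limma, and up to 0.0714 over the alternatives) and the fibroblast markers DCN and COL1A1 were at -0.65 and -0.59 (adjusted p = 0.0513 and 0.102 in limma), while PTPRC and LUM stayed near 0 on every array. The part of these 3 in the members' values was not tested.

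Within each stimulus (n = 3 late and 3 early arrays) ZFP36 was at -1.04 (SE 0.30, limma adjusted p = 0.186) in EGF and at -0.57 (SE 0.30, limma adjusted p = 0.32) in serum. ZFP36L2 was at 0.56 and 0.40 and TOB1 at -0.31 and -0.37 in EGF and serum. For BTG1 the values were -0.07 with EGF and -0.41 with serum, and for KHSRP -0.01 and 0.37. The other 4 members were between -0.04 (TOB2) and 0.23 (ELAVL1) with EGF, and between -0.16 (ZFP36L1) and 0.22 (TOB2) with serum. Of the 9 members 0 passed in either stimulus, against 0.259% of tested genes in EGF and 1.33% in serum, and 3 had an unadjusted p under 0.05 in each, against 14.5% and 20.2%.

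**Figure D3:**
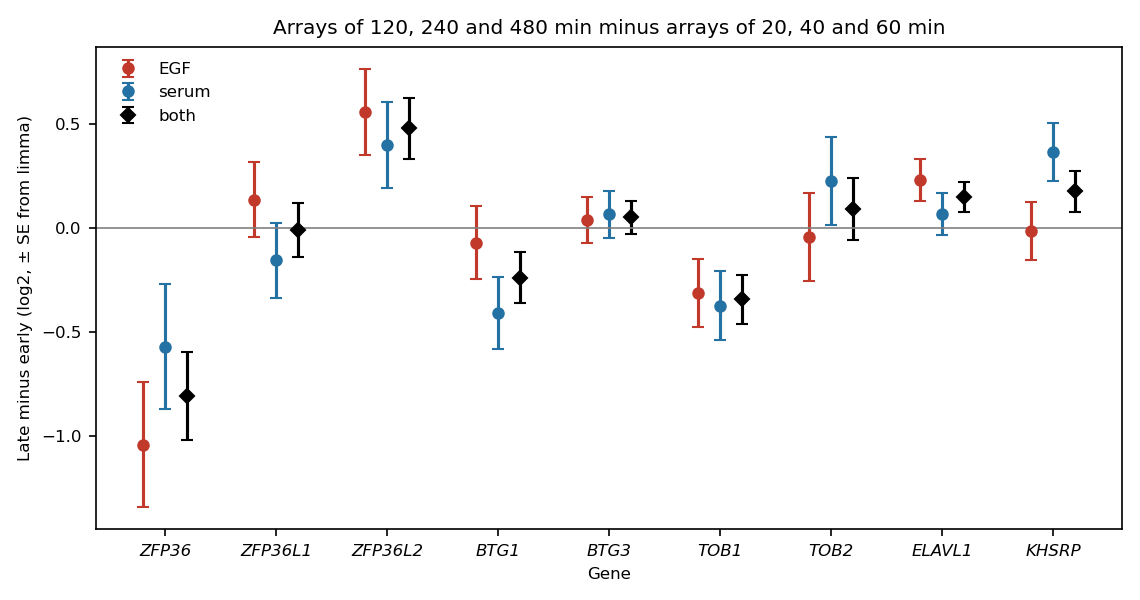
Late arrays (120, 240 and 480 min) minus early arrays (20, 40 and 60 min) for each gene (log2, y axis, ± SE from limma) in EGF (red), in serum (blue) and over both (black diamonds). ZFP36 (-0.81 over both) and ZFP36L2 (0.48 over both) stand on opposite sides of 0.

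Other probe sets of the same genes were compared where they gave signal. The 3 probe sets of ZFP36L2 gave EGF-minus-serum means of -0.49, -0.44 and -0.73, and both of BTG1 gave -0.20 and -0.48. The second probe set of TOB2 went against the first, at -0.23 against 0.27 for EGF minus serum, so no direction can be given for TOB2. For BTG3 the second brightest probe set was at 0.07 against -0.21. ELAVL1 was at 0.41 on its dimmer probe set and 0.09 on the brighter. The other probe sets of ZFP36L1 and KHSRP had medians of 1.9 to 45.3, so these genes rest on 1 bright probe set each, and ZFP36 and TOB1 had 1 probe set in all. With its 4 probe sets averaged, ZFP36L1 was at -0.16 for EGF minus serum (limma adjusted p = 0.58).

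The genes whose values most resembled those of a member over the 13 arrays are given by Pearson's r as a description, since all genes shared the same arrays. For ZFP36 they were GSTK1 (0.92), SLC37A4 (0.90), GADD45A (0.90), CCN1 (0.89) and PLK2 (0.89). TOB1 was closest to CPOX (0.94), GAS1 (0.92), CNIH1 (0.92), DUSP1 (0.90) and TSC22D3 (0.90), of which DUSP1 is a MAP kinase phosphatase and TSC22D3 a glucocorticoid-induced gene. ZFP36L2 was closest to PTPN12 (0.94), DUSP11 (0.94), ADO (0.92), FEM1C (0.91) and CEBPB (0.90). ZFP36L1 was closest to ACSL4 (0.92), CCPG1 (0.91), LAMP2 (0.91), TMEM168 (0.89) and ASAP3 (0.88). TOB2 had weaker neighbours, led by MBP (0.86) and RBFOX2 (0.83) and followed by KCTD2 (0.82), RPAP2 (0.81) and UIMC1 (0.81). Among the members themselves the highest values were 0.75 for ZFP36L1 with TOB1 and 0.72 for ZFP36 with TOB1, and the lowest was -0.65 for TOB1 with ELAVL1.

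The decay machinery that these factors recruit was examined with the same fits. Of 12 tested genes in the list of CCR4-NOT subunits, other deadenylases and their partners, 0 passed the threshold in limma at any response time or in EGF minus serum, where their median was 0.05 against 0.01 over all genes. In late minus early, where 3.47% of all tested genes passed, 1 of 12 did, PAN2, a deadenylase subunit, which fell by 0.72 (SE 0.13, 1.64-fold, limma adjusted p = 0.02, and up to 0.069 over the alternatives, among them the fit without the serum array of 40 min). The largest values in EGF minus serum were -0.50 for NOCT, a circadian-regulated deadenylase relative, and -0.44 for PARN, the poly(A)-specific ribonuclease (limma adjusted p = 0.146 and 0.0662). Of 22 tested genes of decapping, 5′ to 3′ decay and the exosome, 0 passed in any of the 13 comparisons, although SKIC3, a cofactor of the exosome, was at -0.74 in EGF minus serum (limma adjusted p = 0.0662). In late minus early over both stimuli 20 of the 22 had positive values with a median of 0.12, against 0.02 over all genes. The largest were LSM5 (0.32, limma adjusted p = 0.062) and EXOSC4 (0.31, limma adjusted p = 0.0725). Within EGF 14 of the 22 were positive, and within serum 14 of the 22. Over both stimuli 3 of the 22 had an unadjusted p under 0.05 in limma, against 23.9% of all tested genes. Of 15 other regulators of AU-rich mRNAs and decay 0 passed in any comparison in limma, and in EGF minus serum 12 of 15 had positive values (median 0.12), with RC3H1 at 0.47 and HNRNPD (AUF1) at 0.31. At an unadjusted p under 0.05 in EGF minus serum were 2 of the 12 deadenylase genes, 5 of the 22 and 3 of the 15, against 20.5% of all tested genes.

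Transcripts reported as ZFP36 targets, many of them growth factor and cytokine messages, had larger values. Of 20 tested, 1 passed at 40 and at 60 min against the unstimulated array in limma (0.0776% of all tested genes at each time), PTGS2, whose product makes prostaglandins (3.10, SE 0.32, adjusted p = 0.0237 at 40 min, and 3.25, SE 0.32, adjusted p = 0.0168 at 60 min). The list's median response was 0.35, 0.57, 1.05, 0.80, 0.55 and 0.28 from 20 to 480 min, with 16 to 19 of 20 values positive. The call on PTGS2 at 40 min was kept in 6 of 12 fits that left out 1 array and at 60 min in 9 of 12. In late minus early, where 1.68% of tested genes passed as higher and 1.79% as lower, 1 of the 20 passed as higher, the cyclin CCND1 (0.67, adjusted p = 0.036 in limma), and 2 as lower, FOS (-2.58, adjusted p = 0.0389) and the chemokine CXCL2 (-2.00, adjusted p = 0.0029). CXCL2 passed in all 13 fits that left out 1 array, and FOS and CCND1 in 4 of 13 each.

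After EGF the median of these 20 targets against the unstimulated array was 1.10, 0.77 and 0.75 at 120, 240 and 480 min. After serum it was 0.40, 0.41 and 0.12 at those times. In late EGF minus serum 3 of 20 passed in limma as higher after EGF than after serum, against 0.246% of tested genes. They were the angiogenic factor VEGFA (1.26, SE 0.16, 2.39-fold, limma adjusted p = 0.0242), the chemokine CXCL8 (1.48, SE 0.21, 2.79-fold, limma adjusted p = 0.0442) and the cytokine IL1B (1.05, SE 0.16, 2.08-fold, limma adjusted p = 0.0453). With 1 array left out, VEGFA and CXCL8 passed in 5 of 13 fits each and IL1B in 1 of 13, and over all alternatives their adjusted p ran up to 0.135, 0.171 and 0.164. The list's median there was 0.51, while ZFP36 was at -0.92 in the same comparison. In early EGF minus serum the list's median was -0.01 and ZFP36 was at -0.44. Over all times 0 of the 20 passed in limma and 13 had an unadjusted p under 0.05, against 0.129% and 20.5% of tested genes, with a median of 0.38 led by IER3, an early response gene (1.43, adjusted p = 0.0538). These are values of the same arrays set side by side, and no relation between ZFP36 and the list was tested. The list was chosen with earlier results of these data known, so its shares beside those of all genes are a description only.

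**Figure D4:**
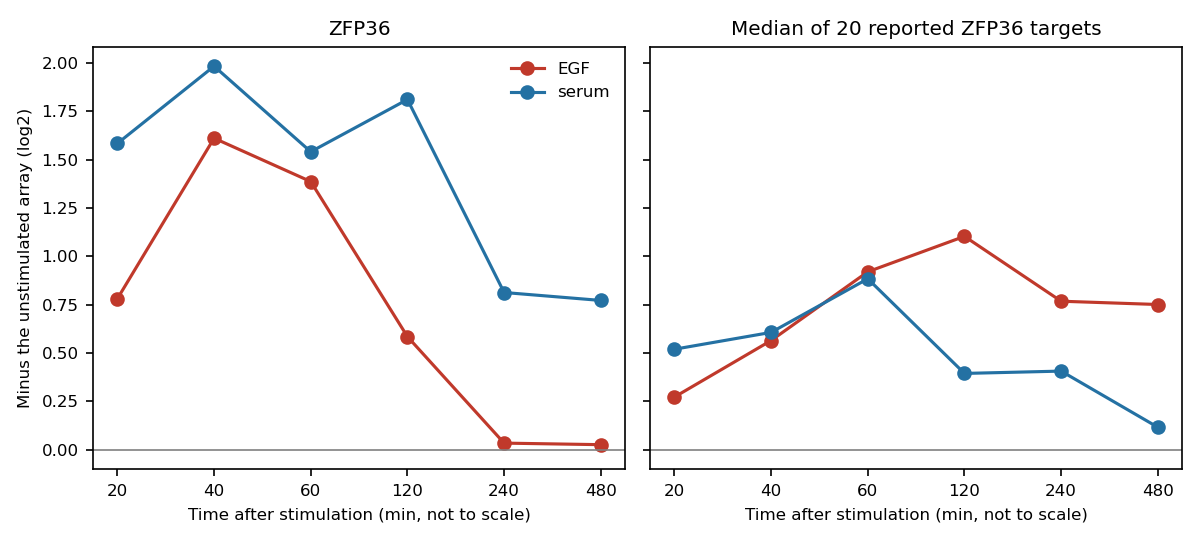
Values minus the unstimulated array (log2, y axis) at 20 to 480 min (x axis, not to scale) after EGF (red) and serum (blue), 1 array per point, for ZFP36 (left) and for the median of 20 tested transcripts reported as its targets (right). At 120 to 480 min the EGF points lie below the serum points for ZFP36 and above them for the targets' median (1.10, 0.77 and 0.75 against 0.40, 0.41 and 0.12).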

How the data were processed

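The authors deposited a linear intensity for every probe set on every array, which the submitters' processing notes name as MAS5 signal; its version is not given in the sources used here. All 13 arrays had a trimmed mean of 150.04 to 150.05, so they had been scaled alike. After 62 control probe sets were left out of 22277, log2(signal + 6) was quantile normalized (limma 3.58.1, R 4.3.3). In the platform annotation 19064 probe sets carried 1 gene symbol, 1043 several and 2108 none here. The brightest probe set stood for each of 11963 genes, and the 7731 with a mean at or above the 40th percentile (4.68) were tested.

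Linear models (lmFit and eBayes) covered all 7731 genes, with two-sided p-values and Benjamini-Hochberg adjustment within each comparison. Responses came from a model with 1 term for each time and 1 for stimulus (5 residual degrees of freedom), late minus early from means of stimulus and phase (8), and EGF minus serum with time as a block (5, and 4 by phase and for the interaction). For the responses both arrays of a time served as its samples, and the single array of unstimulated cells was taken to have the same variance. For late minus early the arrays of different times within a phase served as its samples. The fits of EGF minus serum over all times and of late minus early over both stimuli were run on simulated data. Those data had independent noise and a constant shift in some genes. They did not mimic time courses, and the responses against the single unstimulated array were not covered.

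The 9 measured members were described in each kind of comparison. From the other lists up to 4 genes past the threshold, or the 2 largest differences, were named in the comparisons described, and the 5 genes of most similar pattern for members spanning at least 1 on the log2 scale. Members and lists were chosen with earlier results of these data known. Promoters came from RefSeq (GRCh38.p14), where 8 of the 10 genes matched, and gene positions from the same assembly. Alternatives were the offset, normalization, filter, probe set rule, variance model, coding of time, and each array or both arrays of 20 min left out. Taking the EGF array of 20 min as 40 min was added after seeing the data. Figures used matplotlib 3.10.9 (Python 3.11.15), and tables pandas 2.3.3.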

Additional observations from a re-analysis of the deposited data

Results flagged for a closer look

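For 3 genes the 3 early EGF arrays all lay below the unstimulated array and the 3 early serum arrays all above it, a pattern that 2.11% of tested genes shared. These were ZFP36L1 (early EGF minus serum -0.635), ZFP36L2 (-0.573) and TOB1 (-0.635). The opposite signs rest on the single unstimulated array and on the brightest probe set, and were not tested as such. On another probe set of ZFP36L2 (median signal 178.6) the mean responses at 20, 40 and 60 min were -0.52, -0.39 and -0.12. On the remaining one (median signal 168.9) they were -0.13, 0.20 and 0.33. On the brightest they were -0.12, -0.25 and 0.14. The difference between EGF and serum in the early arrays was tested, and in limma its adjusted p was 0.165 for ZFP36L1, 0.177 for ZFP36L2 and 0.244 for TOB1. With its probe sets averaged, the early ZFP36L1 value was -0.20 (limma adjusted p = 0.69). Without the serum array of 20 min the 3 values were -0.66, -0.64 and -0.77.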

How the results depend on the processing

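The count of members past the threshold was 0 in each of the 13 comparisons and depended on settings that change how many genes are called at all. For EGF minus serum over all times the count was 4 with an offset of 24, 4 with a filter at the 60th percentile and 4 with a variance trend and robust variances, which called 160, 225 and 426 genes against 10. That comparison called 6 genes without an offset, 1 without the filter, 6 with probe sets averaged, 29 without both arrays of 20 min and 56 with the EGF array of 20 min taken as 40 min. The 4 members called were ZFP36, ZFP36L1, ZFP36L2 and TOB1 under each of the 3 settings. The filter at the 60th percentile left 5588 genes tested, against 7731. For late EGF minus serum the counts of members were 1, 1 and 3 under these settings. With the variance trend they were 2 for early EGF minus serum and 1 each for the responses at 40 and 60 min. That setting called 178, 20 and 28 genes in these comparisons, against 0, 6 and 6. For late minus early over both stimuli the counts of members were 1 (offset of 24), 2 (60th percentile), 3 (variance trend) and 1 (time as a factor). The genes called in late minus early numbered 268, against 398 (offset of 24), 576 (60th percentile) and 647 (variance trend). They numbered 67 (no filter), 147 (time as a factor) and 71 (without both arrays of 20 min). In late EGF minus serum they numbered 58, against 166, 285, 554, 1 without the filter, 38 with probe sets averaged and 102 with the EGF array of 20 min as 40 min, and 0 to 58 with 1 array left out. Leaving out each array in turn gave 0 to 2 members in late minus early over both stimuli (56 to 439 genes called), and 0 in the other 12 comparisons. No member passed without an offset, without quantile normalization, without the filter, with probe sets averaged per gene, without both arrays of 20 min or with the EGF array of 20 min taken as 40 min. Of 2520 member values under alternatives 31 passed the threshold and 78 had the other sign, those 78 lying in 38 of 117 results, none of which was larger than 0.366 in size or past the threshold. With its probe sets averaged, ZFP36L1 was at -0.16 for EGF minus serum, against -0.49. The cause of these changes was not tested. EGF minus serum was paired by time throughout. No pairing by replicate number was possible because each group held 1 array. Fold changes of dim genes such as TOB2 and KHSRP are understated by the offset, and genes near background were not tested.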
